A study of Mus musculus with 4 samples.

Results

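The genes described here are 10 genes of branched-chain amino acid breakdown, *Bcat2*, *Bckdha*, *Bckdhb*, *Dbt*, *Bckdk*, *Ivd*, *Mccc1*, *Mccc2*, *Hibch* and *Pcca*, taken by symbol from a table of 55401 genes, in which each of the 10 has a row. They were measured by polyA RNA-seq in hearts of C57BL/6N mice at 8 weeks of age, 2 wild-type libraries and 2 libraries from heterozygous mice (Ctcf+/R567W). In the heterozygous mice 1 copy of *Ctcf*, which encodes a zinc finger protein that organises chromatin loops, carries the R567W point mutation made by CRISPR/Cas9. The comparison asks which transcripts differ between the genotypes in the adult heart. The labels name no drug or other treatment and do not state the sex of the mice. A point mutation need not alter the level of the transcript that carries it, so expression values do not check the genotype. The labels do not tie each library to 1 animal, and p-values then measure only the spread between these libraries.

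Leucine, isoleucine and valine share the first 2 steps of their breakdown, which take place largely in mitochondria. A transaminase removes the amino group, and the branched-chain ketoacid dehydrogenase complex then removes a carboxyl group and forms an acyl-CoA. The complex is switched off when a dedicated kinase phosphorylates it and switched on when a phosphatase removes the phosphate. The paths then part: leucine carbon leaves as acetyl-CoA and acetoacetate, valine carbon as succinyl-CoA, and isoleucine carbon as both acetyl-CoA and succinyl-CoA. The heart carries out both transamination and oxidation of these amino acids, and muscle is a major site of the transamination.

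The values are TPM, relative transcript abundances that sum to the same total in each library, which correct for transcript length but keep no sequencing depth, so the depth behind a value is unknown. Levels below are scaled TPM, TPM divided by a median-of-ratios factor for the library, and fold changes are differences of log2(scaled TPM + 1), heterozygous over wild-type. Adding 1 understates the change of low genes. Mitochondrially encoded genes held 64.7% and 61.1% of the TPM in the wild-type libraries and 68.6% and 62.6% in the heterozygous libraries. The scaling factors were 1.08 and 1.27 for wild-type and 0.821 and 0.910 for heterozygous. The scaling therefore moves every gene in the same direction, and the values without it are given further on. All 8 cardiomyocyte markers had a mean of at least 1 TPM. Their summed levels were 23222 and 21594 scaled TPM in wild-type and 19002 and 22498 in heterozygous libraries, which overlapped. Gene by gene, 3 of the 8 (*Actc1*, *Myl2* and *Pln*) had both heterozygous libraries under both wild-type ones, against 24.0% of all tested genes. The other 5 overlapped. The 4 atrial markers summed to 810 in wild-type replicate 1 against 2340, 1910 and 3256 in the other libraries, and the 5 erythroid markers to 2104 in heterozygous replicate 2 against 934 to 981 in the others. Endothelial markers summed to 256 and 253 in wild-type and to 284 and 330 in heterozygous libraries, but that difference lay in *Egfl7* alone (198 and 192 against 234 and 275), and the other 5 of the 6 markers had fold changes below 0. Fibroblast markers summed to 56.1 and 78.0 against 52.9 and 56.2 and macrophage markers to 25.4 and 25.6 against 21.5 and 29.6. None of the 6 adipocyte markers reached a mean of 1 TPM. The 6 skeletal markers summed to 397 and 392 in wild-type and to 286 and 404 in heterozygous libraries. Nearly all of that was *Ckm* (394 and 390 against 282 and 400), while 2 of the 6, the myosin genes *Myh1* and *Myh4*, were listed at 0 in every library. The part of these differences in the results below was not tested. In whole hearts, fewer cells of a type and less RNA per cell cannot be told apart.

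None of the 10 genes was called different between the genotypes at an adjusted p of 0.05 and a fold change of 1.5. They passed the filter of a mean of 1 TPM, and 0 of them had an unadjusted p under 0.05. Among all 10036 genes tested in the same limma model, 0.0299% were called and 12.3% had an unadjusted p under 0.05, 6.08% with the heterozygous libraries lower. The fold change was below 0 for 8 of the 10 genes and above 0 for *Bckdhb* and *Mccc2*, against 51.6% of all tested genes below 0. Both heterozygous libraries were under both wild-type libraries for *Dbt*, *Bckdk*, *Ivd* and *Mccc1*, and over them for *Bckdhb*. *Dbt* passed the filter only through its wild-type libraries, so its place in that count was favoured by the filter. Among all tested genes these shares were 24.0% and 23.0%. The median fold change of the 10 genes was -0.17 on the log2 scale, and that of all tested genes was -0.01. Without heterozygous replicate 1 the median of the 10 was -0.10 and 6 of them were below 0.

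**Figure D1:**
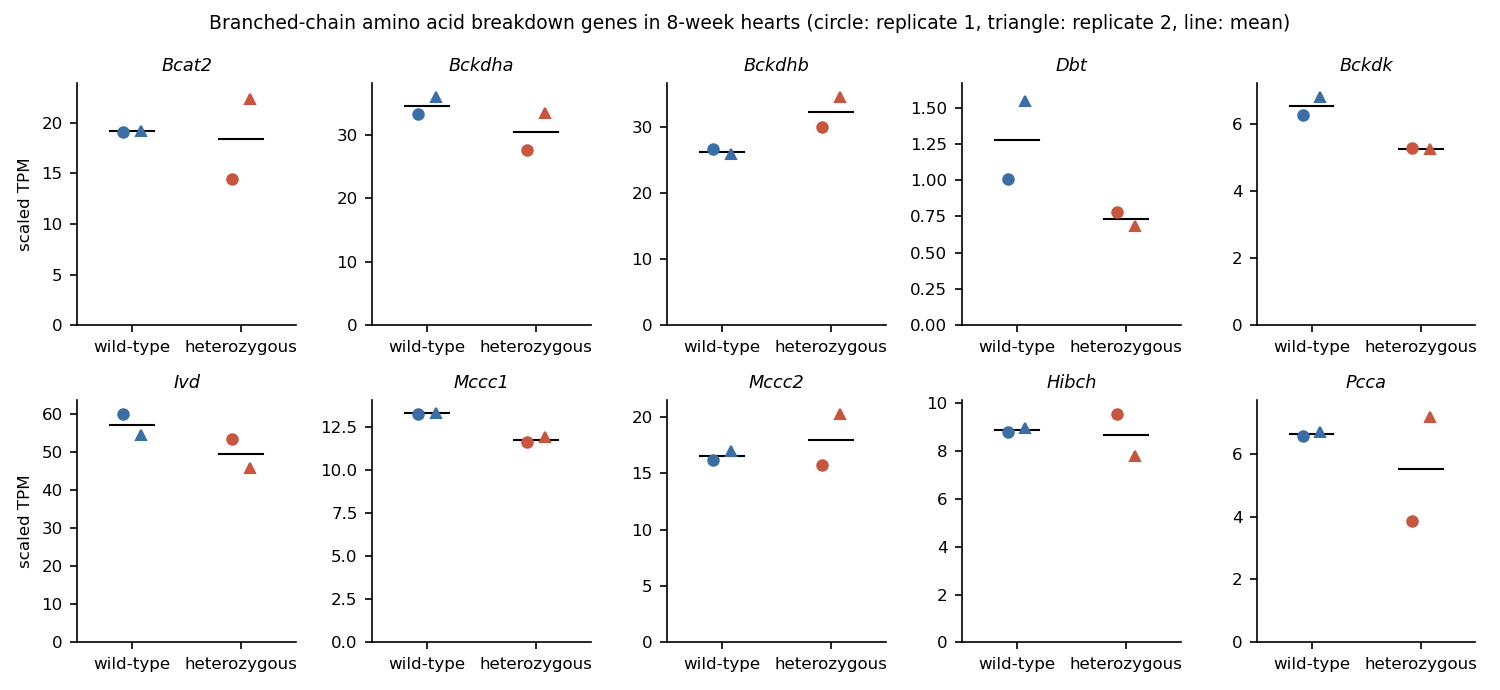
Scaled TPM of each of the 10 genes in the 2 wild-type (blue) and 2 heterozygous (red) libraries, on a separate axis for each gene that starts at 0. Circles are replicate 1, triangles replicate 2 and lines the means of the 2 libraries, and the genotypes do not overlap for *Bckdhb*, *Dbt*, *Bckdk*, *Ivd* and *Mccc1*.

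The levels in wild-type hearts spanned the range of tested genes. *Ivd* was the most abundant of the 10, higher than 95.5% of tested genes, and *Dbt* the least, higher than 8.45%. The order in wild-type was *Ivd*, *Bckdha*, *Bckdhb*, *Bcat2*, *Mccc2*, *Mccc1*, *Hibch*, *Pcca*, *Bckdk* and *Dbt*. Neighbours in that order did not overlap between libraries except *Pcca* and *Bckdk*, at 6.55 and 6.69 against 6.26 and 6.79 scaled TPM. In heterozygous hearts 3 neighbouring pairs overlapped, *Bckdha* and *Bckdhb*, *Bcat2* and *Mccc2*, and again *Pcca* and *Bckdk*.

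The first step is carried out by *Bcat2*, the mitochondrial branched-chain transaminase, which lies on the plus strand at chr7:45570153-45589711 (mm10, GENCODE gene models, as for all genes below). *Bcat2* stood at 19.1 and 19.2 scaled TPM in wild-type and at 14.4 and 22.4 in heterozygous libraries. The heterozygous libraries lay on either side of the wild-type ones. Its log2 fold change was -0.08 with a standard error of 0.22 (95% interval -0.61 to 0.45, adjusted p = 0.890). *Bcat1*, the cytosolic form of the enzyme, was under the filter, with 0.14 and 0.17 TPM in wild-type and 0.11 and 0.08 in heterozygous libraries. The TPM of *Bcat2* was 147 and 143 times that of *Bcat1* in wild-type libraries and 108 and 255 times in heterozygous libraries, a comparison added after the values were seen and resting on very low *Bcat1* values. *Slc25a44*, a mitochondrial carrier for branched-chain amino acids, was also under the filter, at 0.78 and 1.16 TPM in wild-type and 0.75 and 0.59 in heterozygous libraries.

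The dehydrogenase complex is built from the E1 subunits alpha and beta (*Bckdha* and *Bckdhb*), the E2 core (*Dbt*) and an E3 subunit (*Dld*) that it shares with the pyruvate and oxoglutarate dehydrogenases. *Bckdha* (chr7:25629946-25658981, minus strand) stood at 33.3 and 35.9 scaled TPM in wild-type and 27.6 and 33.4 in heterozygous libraries. The higher heterozygous library reached the lower wild-type one, and the fold change was -0.18 ± 0.18 (SE) with an adjusted p of 0.675. It was -0.052 without heterozygous replicate 1 and -0.32 without heterozygous replicate 2. *Bckdhb* (chr9:83925145-84124240, plus strand) stood at 26.7 and 26.0 in wild-type and 30.1 and 34.5 in heterozygous libraries. Both heterozygous libraries were above both wild-type ones, with a log2 fold change of 0.28 ± 0.17 (SE, 95% interval -0.11 to 0.68), an unadjusted p of 0.134 and an adjusted p of 0.501. Without heterozygous replicate 2 the estimate was 0.18. The alpha and beta genes, whose products form the same E1 component, thus had estimates of opposite sign, neither of which passed the test.

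*Dbt* (chr3:116513070-116549981, plus strand) had the lowest level of the 10 genes, 1.01 and 1.55 scaled TPM in wild-type and 0.780 and 0.681 in heterozygous libraries. The genotypes did not overlap, and the means were 1.28 ± 0.381 and 0.730 ± 0.0698 (SD, n = 2). Its log2 fold change was -0.39, with a standard error of 0.17, a 95% interval from -0.78 to 0.01, an unadjusted p of 0.0535 and an adjusted p of 0.409. Its mean TPM before scaling was 1.08, close to the filter. Its fold change ran from -0.56 without wild-type replicate 1 to -0.21 without wild-type replicate 2, and was -0.70 with 0.1 added in place of 1 and -0.13 with 5 added. *Dld*, the shared subunit, stood at 26.8 and 26.2 in wild-type and 28.2 and 23.6 in heterozygous libraries, with a log2 fold change of -0.04, and 0.082 without heterozygous replicate 2.

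*Bckdk*, the kinase that inactivates the complex (chr7:127904082-127910221, plus strand), stood at 6.26 and 6.79 scaled TPM in wild-type and at 5.26 and 5.24 in heterozygous libraries. Both heterozygous values were under both wild-type values and close to each other. The log2 fold change was -0.27 ± 0.14 (SE, 95% interval -0.59 to 0.06), with an unadjusted p of 0.0957 and an adjusted p of 0.459. *Ppm1k*, the phosphatase that activates the complex, had an estimate of -0.27 ± 0.15, from 4.54 and 3.77 in wild-type to 3.13 and 3.41 in heterozygous libraries (adjusted p = 0.475). Without wild-type replicate 1 it was -0.17 for *Ppm1k* and -0.32 for *Bckdk*. The ratio of kinase to phosphatase transcripts was 1.38 and 1.80 in wild-type and 1.68 and 1.54 in heterozygous libraries, so the heterozygous values lay between the wild-type ones.

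*Ivd*, isovaleryl-CoA dehydrogenase, opens the leucine branch (chr2:118861954-118882909, plus strand). It stood at 59.8 and 54.4 scaled TPM in wild-type and at 53.4 and 45.7 in heterozygous libraries. The genotypes did not overlap, but the gap between them was smaller than the difference within either genotype, and the fold change was -0.20 ± 0.18 (SE, adjusted p = 0.646). Without heterozygous replicate 1 it was -0.32 and without heterozygous replicate 2 -0.098. *Mccc1* and *Mccc2* encode the biotin-bearing alpha and the beta subunit of methylcrotonyl-CoA carboxylase, the step that follows in the same branch. *Mccc1* (chr3:35959312-36000678, minus strand) was at 13.3 in both wild-type libraries and at 11.6 and 11.9 in heterozygous libraries, a fold change of -0.16 ± 0.15 (adjusted p = 0.652). The genotypes were apart and each pair of libraries was close. *Mccc2* (chr13:99948530-100015639, minus strand) stood at 16.2 and 16.9 in wild-type and 15.7 and 20.2 in heterozygous libraries, with a fold change of 0.10 ± 0.18 (adjusted p = 0.834). Its heterozygous libraries lay below and above the wild-type ones.

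*Hibch*, 3-hydroxyisobutyryl-CoA hydrolase of the valine branch (chr1:52844929-52920986, plus strand), stood at 8.80 and 8.93 scaled TPM in wild-type and 9.54 and 7.78 in heterozygous libraries. The values overlapped, with a fold change of -0.04 ± 0.16 (adjusted p = 0.934). *Pcca*, the biotin-bearing alpha subunit of propionyl-CoA carboxylase (chr14:122534324-122891100, plus strand), serves the carbon of valine and isoleucine on its way to succinyl-CoA. It stood at 6.55 and 6.69 in wild-type and at 3.86 and 7.16 in heterozygous libraries. Heterozygous replicate 1 was far below the wild-type libraries and replicate 2 above them, and the fold change was -0.27 ± 0.24 (95% interval -0.86 to 0.31, adjusted p = 0.652). Without heterozygous replicate 1 the fold change of *Pcca* was 0.10 and that of *Bcat2* 0.21. Without heterozygous replicate 2 that of *Mccc2* was -0.08 and that of *Hibch* 0.09.

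Some of the 10 genes share transcribed sequence with others, and the strand used in counting is not given in the sources used here. Of the 1899 exonic bases of *Bckdha*, 1171 overlap *B3gnt8* on the opposite strand, which was listed at 0.16 to 0.46 TPM. *Pcca* shares 241 of 5210 exonic bases with *Ggact* on the opposite strand, at 1.49 to 2.45 TPM. *Bcat2* shares 622 of 3900 with 0610005C13Rik, at no more than 0.17 TPM, and *Mccc1* shares shorter stretches with *Gm15952*, *Mccc1os* and *B230207O21Rik*, at no more than 0.06 TPM. A processed pseudogene of *Hibch*, *Gm7512*, matches 1124 bases of its transcript at 92.6% identity and was listed at 0 in all 4 libraries.

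Ratios of 2 transcripts within a library do not depend on how libraries are scaled, and 6 such ratios of partner genes were compared. An exact permutation test of 2 libraries against 2 cannot give a two-sided p under 0.333, so none could pass a threshold. *Bckdha* to *Bckdhb* was 1.25 and 1.38 in wild-type and 0.917 and 0.968 in heterozygous libraries. The alpha transcript was the more abundant in both wild-type libraries and the less abundant in both heterozygous ones, a log2 difference of -0.48 (exact permutation p = 0.333, adjusted over the 6 ratios 0.667). *Dbt* to *Bckdha* was 0.0302 and 0.0430 in wild-type and 0.0283 and 0.0204 in heterozygous libraries, a difference of -0.59. It rests on the low *Dbt* values, which passed the filter only through the wild-type libraries, and was -0.33 without wild-type replicate 2 and -0.35 without heterozygous replicate 2. *Mccc1* to *Mccc2* was 0.822 and 0.786 in wild-type and 0.741 and 0.589 in heterozygous libraries, a difference of -0.28 that was -0.12 without heterozygous replicate 2 and -0.45 without heterozygous replicate 1. These 3 ratios did not overlap between genotypes and shared the same exact p. The other 3 overlapped. *Pcca* to its partner subunit *Pccb* was 0.653 and 0.566 in wild-type and 0.410 and 0.607 in heterozygous libraries (exact permutation p = 0.667), and the difference of -0.28 was -0.0015 without heterozygous replicate 1. *Bckdk* to *Bckdha* was 0.188 and 0.189 in wild-type and 0.191 and 0.157 in heterozygous libraries.

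**Figure D2:**
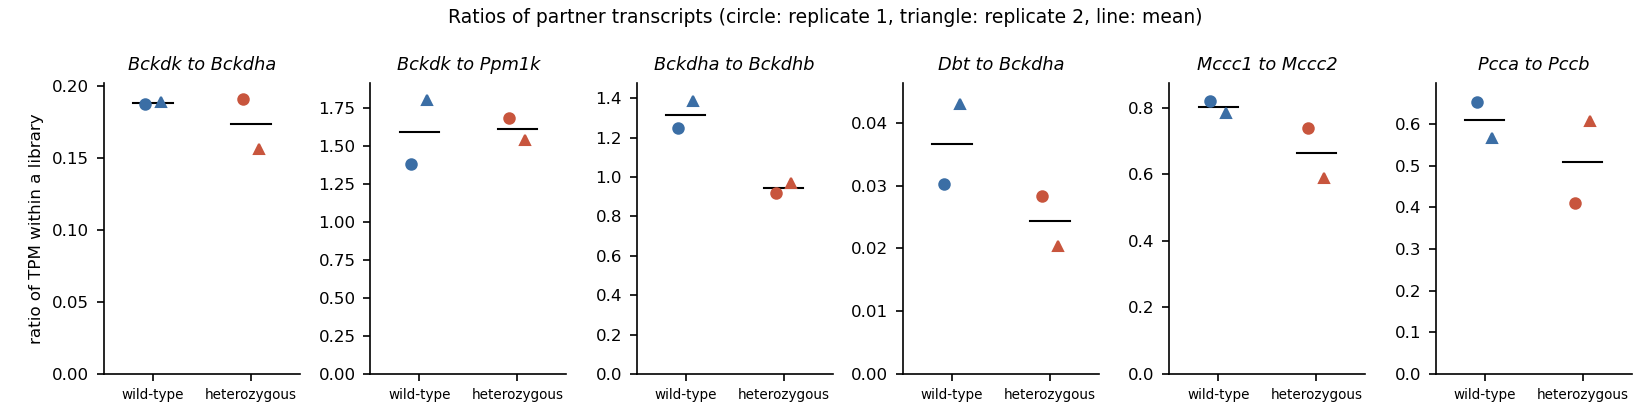
Ratio of the TPM of 2 partner genes within each library, by genotype, on axes that start at 0, with circles for replicate 1, triangles for replicate 2 and lines for means. *Bckdha* to *Bckdhb* lies above 1 in both wild-type and below 1 in both heterozygous libraries, while *Bckdk* to *Ppm1k* overlaps.

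The scaling decides the sign of 2 of the 10 genes. In the TPM as deposited all 10 had a fold change below 0, as did 90.6% of all tested genes, and 8 of the 10 had both heterozygous libraries under both wild-type ones, as did 67.8% of all tested genes. *Bckdhb* was then at 28.9 and 32.9 TPM in wild-type and 24.7 and 31.4 in heterozygous libraries, a fold change of -0.14, and *Mccc2* had a fold change of -0.31. The median of the 10 was -0.59 and that of all tested genes -0.35. With the mitochondrially encoded genes removed and the TPM rescaled the medians were -0.50 and -0.31, and 9 of the 10 genes, against 58.9% of all tested genes, had both heterozygous libraries under both wild-type ones. Under each of the 3 scalings 8 of the 10 genes were below the median of all tested genes, and *Bckdhb* and *Mccc2* were above it.

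**Figure D3:**
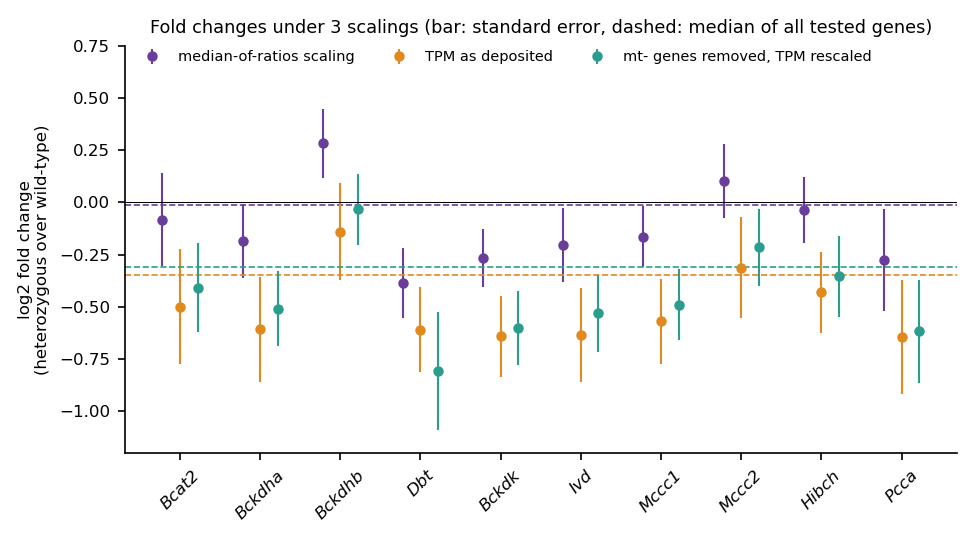
Log2 fold change, heterozygous over wild-type, of the 10 genes after median-of-ratios scaling (purple), in the TPM as deposited (orange) and with mitochondrially encoded genes removed (green), with standard errors as bars and the median of all tested genes under each scaling as a dashed line. All 10 points move down without the median-of-ratios scaling, as does the median of all genes, and *Bckdhb* and *Mccc2* stay above each median.

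The remaining enzymes and regulators of the pathway were taken as a list of 16 genes, 14 of which passed the filter. None was called. The fold change was below 0 for 12, against 51.6% of all tested genes, and above 0 for 2. In 8 both heterozygous libraries were under both wild-type ones, against 24.0% of all tested genes. The median of the 14 was -0.26, and -0.13 with 5 added in place of 1. In the TPM as deposited it was -0.59, where that of all tested genes was -0.35. Of these 14, 4 had an unadjusted p under 0.05, each with a lower estimate in heterozygous hearts. Among all tested genes that share was 12.3%, and 6.08% with the heterozygous libraries lower. *Echs1*, the enoyl-CoA hydratase shared by the valine and isoleucine branches and by fatty acid oxidation, stood at 26.3 and 30.1 scaled TPM in wild-type and 14.1 and 19.0 in heterozygous libraries, a log2 fold change of -0.75 ± 0.20 (adjusted p = 0.322). *Hsd17b10*, a dehydrogenase of the isoleucine branch, stood at 31.3 and 34.7 against 17.4 and 24.9, a fold change of -0.64 ± 0.21 (adjusted p = 0.342). *Mcee*, which acts after propionyl-CoA carboxylase, stood at 48.8 and 51.2 against 34.6 and 36.3, a fold change of -0.49 ± 0.16 (adjusted p = 0.354). The genotypes were apart for all 3. The gap exceeded the difference within either genotype for *Echs1* and *Mcee*, but for *Hsd17b10* it was smaller than the difference between the heterozygous libraries, and without heterozygous replicate 1 its fold change was -0.40. *Acadsb*, the short branched-chain acyl-CoA dehydrogenase of isoleucine, had a fold change of -0.34. *Hibadh*, which follows *Hibch* in the valine branch, had one of -0.44, or -0.25 without heterozygous replicate 1. Neither passed after adjustment. In the TPM as deposited the fold changes were -1.17 for *Echs1*, -1.06 for *Hsd17b10* and -0.91 for *Mcee*. They were -0.71 for *Acadsb* and -0.85 for *Hibadh*, and none of these passed after adjustment.

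**Figure D4:**
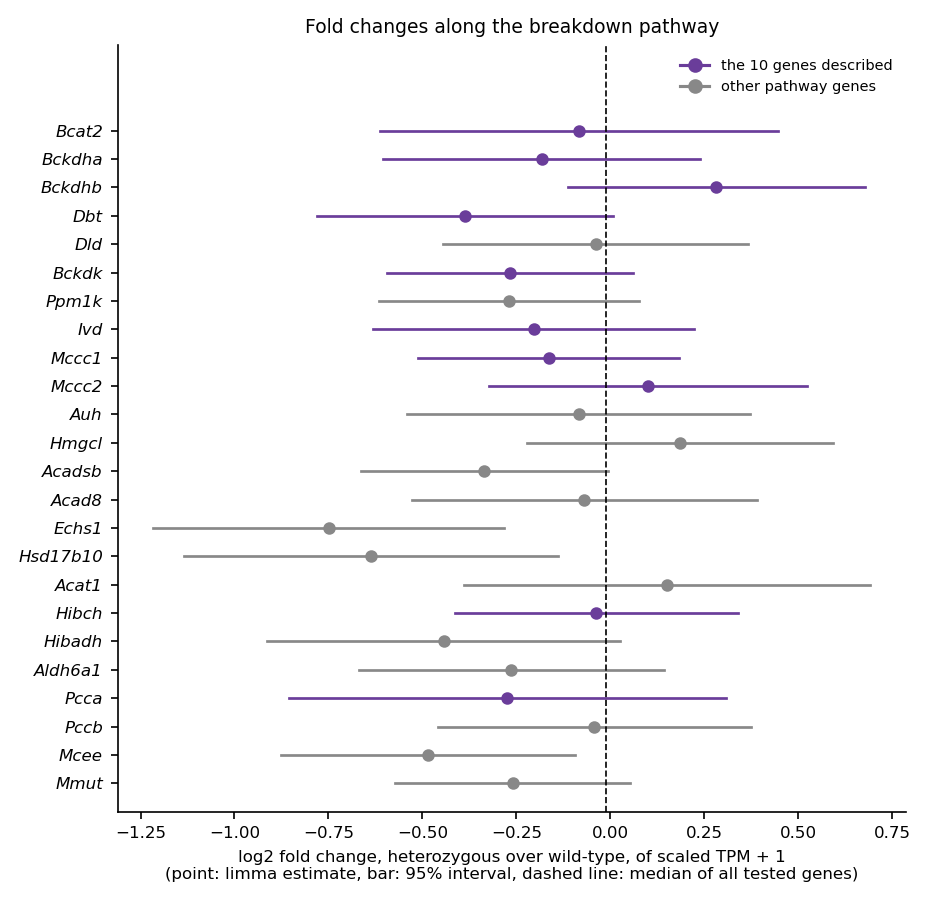
Log2 fold change, heterozygous over wild-type, of the 10 genes (purple) and the 14 other tested pathway genes (grey), ordered along the pathway, with 95% intervals of the limma fit and the median of all tested genes as a dashed line. The intervals of all 10 purple genes include 0, and those of *Acadsb*, *Echs1*, *Hsd17b10* and *Mcee* lie below it without adjustment for the number of genes tested.

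Of 8 genes for uptake and transcriptional control, 4 passed the filter, with a median of 0.02. *Klf15*, a transcription factor known as a regulator of branched-chain amino acid breakdown in muscle and heart, stood at 4.66 and 4.20 scaled TPM in wild-type and at 7.04 and 7.11 in heterozygous libraries. The heterozygous libraries were the higher, with a log2 fold change of 0.57 ± 0.14 (unadjusted p = 0.00466, adjusted p = 0.307), which was 0.20 in the TPM as deposited. Of 11 genes for the biotin, lipoate, thiamine and cobalamin that the enzymes need, 8 passed the filter, 4 below 0 and 4 above, with a median of -0.04. *Mmab* (1.18 and 1.14 against 0.889 and 0.934 scaled TPM) passed the filter only through its wild-type libraries. So did *Ppargc1a* among the genes for transcriptional control (1.01 and 1.10 against 0.987 and 0.901). The filter thus favoured their place below 0. The largest differences without overlap were those of *Mmadhc*, of cobalamin handling (-0.31, adjusted p = 0.453), and *Lias*, lipoate synthase (-0.30, adjusted p = 0.451, and -0.18 without wild-type replicate 1).

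Neighbouring mitochondrial pathways were set beside the 10 genes as a description. Of 12 genes of the pyruvate and oxoglutarate dehydrogenases, their kinases and phosphatases, 10 passed the filter. All 10 had a fold change below 0, against 51.6% of all tested genes, with a median of -0.35. In 8 both heterozygous libraries were under both wild-type ones, against 24.0% of all tested genes. Among the 10 was *Pdk4*, a kinase that inactivates pyruvate dehydrogenase, at 13.9 and 7.73 scaled TPM in wild-type and 2.36 and 1.33 in heterozygous libraries, a fold change of -2.03 ± 0.29 (adjusted p = 0.173). The 17 genes of the tricarboxylic acid cycle had a median of -0.53, with both heterozygous libraries under both wild-type ones for 13 of them. The 15 genes of mitochondrial beta-oxidation had a median of -0.58, and 14 were apart in the same direction, where 24.0% of all tested genes were. The unadjusted p of the limma fit was under 0.05 for 4 of the 10 dehydrogenase genes, 12 of the 17 and 9 of the 15. All of these were lower in heterozygous libraries, as were 6.08% of all tested genes at that p. No gene of these 3 lists was called by the genotype model of the 4 scaled libraries. With the replicate block in that model *Pdk4* was called (-2.03, adjusted p = 0.00391). It was also called in the TPM as deposited (-2.37, adjusted p = 0.00884) and with mitochondrially encoded genes removed (-2.62, adjusted p = 0.0342). Without wild-type replicate 2 its fold change was -2.38, where it was called too. *Dld* and *Echs1* are counted both in the pathway and in one of these lists, and *Ogdh* and *Dlst* in both the dehydrogenase and the tricarboxylic acid cycle lists. The difference between the lists was not tested.

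**Figure D5:**
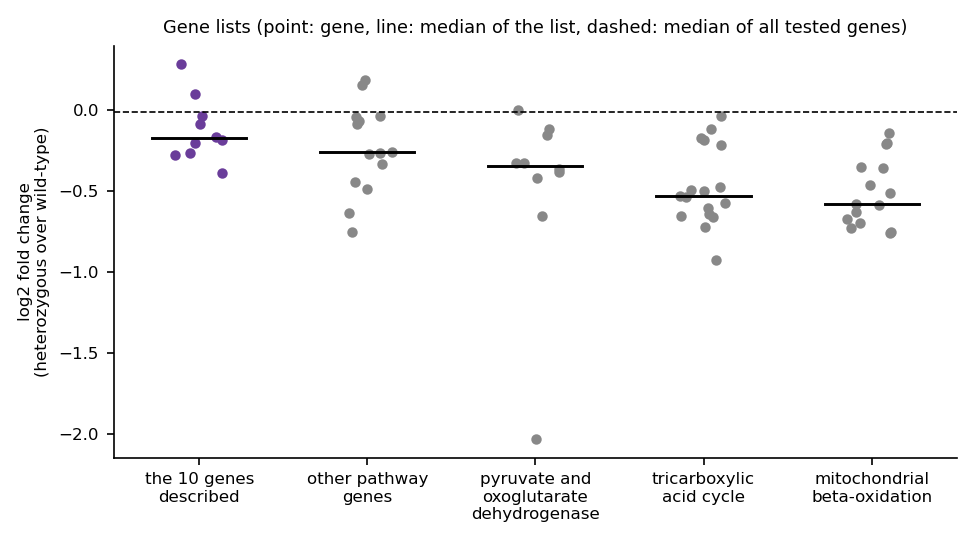
Log2 fold change, heterozygous over wild-type, of every tested gene (points) in the 10 genes described, the other pathway genes and 3 neighbouring mitochondrial lists, with the median of each list as a solid line and that of all tested genes as a dashed line. The medians run from -0.17 for the 10 genes to -0.58 for beta-oxidation, and *Pdk4* is the single point near -2.03.

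The genes whose pattern over the 4 libraries lay nearest to the mean pattern of the 10, among tested genes outside the lists with a mean of at least 10 TPM, were *Klhdc8b*, *Trpc4ap*, *Ap2m1*, *Hagh* and *Nars*, at Euclidean distances of 0.0186 to 0.0395 between centred log2 values. The mean pattern was lowest in heterozygous replicate 1, at -0.14, and stood at 0.04 and 0.09 in the wild-type libraries and 0.02 in heterozygous replicate 2. The 10 genes together summed to 191 and 190 scaled TPM in wild-type and to 172 and 189 in heterozygous libraries.

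The 250 bases before the annotated start were read from RefSeq (GRCm38.p6) for 9 of the 10 genes, in 12 windows. They were searched on both strands for 4 short motifs. Both *Bcat2* windows lie wholly in GENCODE exons, as do 220 of the 250 bases of the *Bckdha* window. A *Bcat2* window (chr7:45571029-45571278) and a *Bckdhb* window (chr9:83948531-83948780) lie inside the gene. A *Pcca* window (chr14:122484115-122484364) lies far before the gene start given above. AAGGTCA, a half-site of estrogen-related receptors, which are regulators of mitochondrial genes, was in none of the 12 windows and in 4.08% of 32851 windows of that length. AGGGGGC, part of the core motif of CTCF, was in 1 window, of *Pcca*, and in 9.43% of all windows. GGGCGG, the GC box, was in 4 of the 12 windows, 1 each of *Bckdhb*, *Hibch*, *Mccc1* and *Pcca*, and in 32.7% of all windows. CCAAT was in 7 of the 12 windows, of 6 genes, and in 33.8% of all windows. *Bckdk* is shown as the gene whose 2 heterozygous libraries agreed most closely while lying under wild-type, and *Pcca* as the gene with the CTCF letters. Capitals mark the motif matches on either strand, and in *Pcca* the AGGGGGC match overlaps a GC box. The *Bckdk* window is chr7:127903823-127904072 and the *Pcca* window chr14:122534078-122534327, both on the plus strand.
Bckdk: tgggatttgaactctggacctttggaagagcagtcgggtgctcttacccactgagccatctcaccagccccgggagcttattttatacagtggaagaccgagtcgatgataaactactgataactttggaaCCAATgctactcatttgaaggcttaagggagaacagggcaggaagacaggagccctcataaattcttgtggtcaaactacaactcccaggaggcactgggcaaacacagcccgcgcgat
Pcca: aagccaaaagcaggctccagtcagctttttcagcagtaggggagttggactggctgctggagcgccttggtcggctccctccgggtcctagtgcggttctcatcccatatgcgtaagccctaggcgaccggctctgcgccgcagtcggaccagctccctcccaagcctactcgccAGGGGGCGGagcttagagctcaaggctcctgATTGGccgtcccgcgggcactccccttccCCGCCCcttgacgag
The *Bckdk* window holds 1 CCAAT box and no GC box, and the *Pcca* window 1 CCAAT box and 2 GC boxes. A match describes letters and no binding was measured here.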

How the data were processed

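The authors deposited 1 table of TPM per gene, rounded to 2 decimals. Per the submitters' processing notes and the study's methods, reads were trimmed with Trim Galore, aligned to mm10 with STAR and quantified with RSEM. The annotation release is not given in the sources used here, and read counts were not used here, so no count model was fitted. Genotypes came from the sample labels. TPM were divided by median-of-ratios factors over genes above 0 in every library, and were analysed as log2(scaled TPM + 1). The fit held the 10036 genes averaging at least 1 TPM and was made with limma 3.58.1 in R 4.3.3 (lmFit, eBayes with trend, two-sided, Benjamini-Hochberg adjustment over all of them), after the code was tested on simulated data. The prior had 4.76 degrees of freedom and the residual 2. Ratios were tested by exact permutation, two-sided. Overlaps came from GENCODE M21 gene models and BLAST+ 2.17.0. All 10 genes are named. Of the other lists up to 5 genes could be named, those called and then those with the largest fold change whose genotypes did not overlap. *Ppm1k*, *Dld*, *Bcat1*, *Slc25a44* and the overlapping genes are named for their role beside the 10, and *Mmab* and *Ppargc1a* for how they passed the filter. The 10 genes, the lists and the tests were chosen with earlier results of these data known. Alternatives changed the pseudocount, the filter, the scaling, the empirical Bayes step, the replicate block and the libraries left out. TPM keep no depth, so the precision rests on 2 libraries per genotype and, through the prior of eBayes, on the spread of other genes in them.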

Additional observations from a re-analysis of the deposited data

How the results depend on the processing

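None of the 10 genes was called in any of the 15 alternatives, and the smallest adjusted p of any of them ranged from 0.0860 with mitochondrially encoded genes removed to 0.9999 without wild-type replicate 2. The median of the 10 was -0.59 in the TPM as deposited and -0.50 with mitochondrially encoded genes removed, and the number with both heterozygous libraries under both wild-type ones was 8 and 9 in place of 4, against 67.8% and 58.9% of all tested genes in place of 24.0%. Under these 2 scalings *Bckdhb* reversed to -0.14 and -0.034 and *Mccc2* to -0.31 and -0.21, and the median of the other pathway genes was -0.59 and -0.60. That median was -0.13 with a pseudocount of 5, -0.17 with no filter and -0.17 at a mean TPM of at least 5. With no filter 16 of these other pathway genes were tested, and at a mean TPM of at least 5 there were 12, in place of 14. *Dbt* leaves the 10 genes described at a mean TPM of at least 5. *Bckdk* to *Ppm1k* was -0.030 with 1 added to both TPM values. Leaving out each library in turn gave -0.39 to 0.21 for *Bcat2* and -0.66 to 0.10 for *Pcca*, above 0 without heterozygous replicate 1, and -0.076 to 0.27 for *Mccc2* and -0.17 to 0.091 for *Hibch* and -0.17 to 0.082 for *Dld*, reversed without heterozygous replicate 2. It gave -0.84 to -0.33 for *Dbt* to *Bckdha*, -0.45 to -0.12 for *Mccc1* to *Mccc2* and -0.57 to -0.0015 for *Pcca* to *Pccb*. It gave -0.27 to 0.019 for *Bckdk* to *Bckdha*, above 0 without heterozygous replicate 2, and -0.16 to 0.22 for *Bckdk* to *Ppm1k*, below 0 without wild-type replicate 1 or heterozygous replicate 1. The cause was not tested. *Pdk4*, not called by the genotype model of the 4 scaled libraries (adjusted p = 0.173), was called in the TPM as deposited (-2.37), with mitochondrially encoded genes removed (-2.62), with the replicate block (-2.03, adjusted p = 0.00391) and without wild-type replicate 2 (-2.38). With 1 library left in a genotype, that library was assumed to vary like the others.

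Among all tested genes, 3 were called lower and 0 higher. The counts were 11 and 2 in the TPM as deposited and 12 and 2 with mitochondrially encoded genes removed. They were 2 and 0 with a pseudocount of 5, at a mean TPM of at least 5, with quantile normalization and without the trend. Factors over tested genes only, an alternative added after seeing the data, also gave 2 and 0. The counts were 0 and 0 with no filter, 4 and 0 with a pseudocount of 0.1, and 3 and 2 with robust eBayes. They were 13 and 5 or 18 and 5 without wild-type replicate 1 or 2, and 4 and 11 or 3 and 3 without heterozygous replicate 1 or 2. With a replicate block they were 8 and 3, the median of the 10 genes was -0.17 and their smallest adjusted p 0.372, with 0 called. The labels tie same-numbered libraries only by that number and do not say whether they were paired. Their deviations correlated at 0.101 across genes. With 2 libraries per genotype both pairs give this same value, so it cannot decide whether the libraries were paired.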
